A study of Mustela putorius furo and Mus musculus with 4 samples.

Results

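Sox genes known from neural progenitors or neurons, 8 in number (the members), were followed across cortical cell classes: *Sox2*, *Sox3*, *Sox4*, *Sox6*, *Sox8*, *Sox9*, *Sox11* and *Sox21*. They were taken by symbol, and all 8 were found among the 17170 genes of the mouse table and the 22008 genes of the ferret table (there in capitals). The study profiled single cortical cells by droplet RNA sequencing, in which each counted molecule carries a unique molecular identifier (UMI). The mouse samples (CD1 strain, embryonic day (E) 18) were 1 control library and 1 library of embryos in which *hGFAP-Cre* deletes floxed *Smo*, called Smo-cKO (*hGFAP-Cre;Smo F/F*). Both came from embryos given a fluorescent cell dye (Flash-Tag in the labels, CellTrace Yellow in the methods) in the ventricle at E17, and labelled cells were sorted. The labels call the control wild type, whereas the study's methods give littermate *Smo F/F* without Cre. *hGFAP-Cre* starts in radial glia (RG) of the medial cortex and, per the study, later reaches nearly all cortical RG, and *Smo* encodes the transducer of Sonic hedgehog signalling. The ferret sample was the unsorted wild-type cortex of 1 embryo at E39, deposited as 2 sets of barcodes (ferret set 1 and ferret set 2), which are therefore not separate animals.

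Sox proteins are transcription factors that bind DNA through a shared domain, the HMG box, and fall into subgroups by the similarity of that box. In the developing cortex the SoxB1 genes *Sox2* and *Sox3* maintain neural progenitors, and the SoxB2 gene *Sox21* is known to counteract SoxB1 activity. The SoxE genes *Sox9* and *Sox8* act in neural stem cells and in glial lineages, the SoxD gene *Sox6* acts in progenitors, oligodendrocyte precursors and interneurons from the medial ganglionic eminence, and the SoxC genes *Sox4* and *Sox11* activate neuronal genes in newly born neurons.

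The stretch of coding sequence in which all 8 were most alike was found by sliding the *Sox2* coding sequence, 60 bases at a time and in frame, over the other 7 without gaps. It is shown to let the members be compared base by base; capitals mark bases that differ from *Sox2*, sequences run 5′ to 3′ on the coding strand, and all come from GENCODE vM21 transcripts on GRCm38.
Sox2: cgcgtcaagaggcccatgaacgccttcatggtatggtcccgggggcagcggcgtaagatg
Sox3: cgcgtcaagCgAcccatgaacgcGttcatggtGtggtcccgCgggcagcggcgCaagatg
Sox21: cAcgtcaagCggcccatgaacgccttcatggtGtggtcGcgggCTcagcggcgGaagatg
Sox9: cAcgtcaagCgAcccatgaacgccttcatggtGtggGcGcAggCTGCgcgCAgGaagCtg
Sox8: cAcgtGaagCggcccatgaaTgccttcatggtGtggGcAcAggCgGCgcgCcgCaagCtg
Sox6: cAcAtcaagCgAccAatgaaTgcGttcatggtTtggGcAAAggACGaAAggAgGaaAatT
Sox4: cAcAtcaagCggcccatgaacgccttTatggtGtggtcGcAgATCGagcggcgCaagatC
Sox11: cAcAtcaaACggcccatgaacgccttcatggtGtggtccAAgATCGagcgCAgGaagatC
Of these 60 bases, *Sox3* shared 54 and *Sox21* shared 53 with *Sox2*, against 39 for *Sox6*. *Sox4* and *Sox11* shared 53 with each other, as did *Sox9* and *Sox8*. The window did not set *Sox21* apart from the SoxE genes, since it shared 52 bases with *Sox9*, as many as with *Sox3*. The windows lie at chr3:34650539-34650598 on the plus strand (*Sox2*), chrX:60892945-60893004 on the minus strand (*Sox3*), chr14:118235558-118235617 on the minus strand (*Sox21*), chr11:112782894-112782953 on the plus strand (*Sox9*), chr17:25570172-25570231 on the minus strand (*Sox8*), chr7:115489712-115489771 on the minus strand (*Sox6*), chr13:28952791-28952850 on the minus strand (*Sox4*) and chr12:27342208-27342267 on the minus strand (*Sox11*), each within 1 exon. *Sox2*, *Sox3*, *Sox21*, *Sox4* and *Sox11* have 1 exon, *Sox9* and *Sox8* have 3, and the *Sox6* transcript used here has 17. The longest run of identical bases between the transcripts of any pair of members was 48, between *Sox4* and *Sox11*. Annotated genes overlap *Sox2* (*Sox2ot*), *Sox21* (*Gm4675*), *Sox8* (*2810468N07Rik*), *Sox6* (*Sox6os*, *Gm45025*) and *Sox4* (*Gm26735*), and how the deposited counts treated such overlaps was not given in the sources used here.

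Cells were placed in classes by how many markers of fixed lists had a UMI, none of which was a member. At least 3 markers of 1 list were needed, and cells with 3 markers of both neighbouring lists formed transition classes. Cells with at least 3 of 10 cell-cycle markers were taken out of the steps, while cells with fewer such markers stayed in. This gave 7 steps: RG-like (*Slc1a3*, *Aldoc*, *Mfge8*, *Ednrb*, *Tnc*, *Ddah1*), RG/IPC, intermediate progenitor (IPC)-like (*Eomes*, *Neurog2* and 4 others), IPC/newborn, newborn pyramidal neuron (PyN)-like (*Neurod1*, *Unc5d* and 3 others), newborn/PyN and PyN-like (*Neurod2*, *Tbr1* and 4 others). Apart from these steps, cycling RG-like, cycling IPC-like, multipotent intermediate progenitor (MIPC)-like (*Egfr*, *Olig2* and 3 others), inhibitory-like, microglia-like and vascular-like cells were set. The libraries held 7690 (control), 5660 (Smo-cKO), 6778 (ferret set 1) and 9519 (ferret set 2) cells in these classes. RG-like cells numbered 1348, 1090, 96 and 181, with a median of 4339.5, 6670, 2651.5 and 3753 UMIs per cell, and PyN-like cells 596, 521, 6062 and 7606. A level is given as CPM, a gene's UMIs per 1000000 UMIs of all genes in the class, with its exact 95% Poisson interval, and a share of cells with its exact Clopper-Pearson interval; both cover counting error only. As there was 1 library per genotype and 1 ferret, no difference below has a replicate check, and no p-value is given. Levels of 1 gene are compared across classes, not between genes, since UMI counts were not scaled by transcript length.

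The mouse barcode sets were matched to genotype by their number of cells, the control being the larger as the study states. *Smo*, the deleted gene, had 100 UMIs (16.2 CPM) in RG-like cells of the control and 1 UMI (0.134 CPM) in those of the Smo-cKO library. The mouse libraries shared 28 cell barcodes and the ferret sets 38, and doublets were not removed beyond leaving out cells with markers of unrelated lists.

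Along the steps, *Sox2*, *Sox3*, *Sox21*, *Sox9*, *Sox8* and *Sox6* were lower in neurons than in RG-like cells, and *Sox4* and *Sox11* higher, in both mouse libraries. With a gene said to differ between RG-like and PyN-like cells where the ratio was at least 2 and its exact interval left out 1, 6 of 8 members were higher in RG-like cells of the control, where 19.4% of all genes with at least 50 UMIs were. The count was 6 of 8 in the Smo-cKO library, against 20% of genes. *Sox4* and *Sox11*, 2 of 8, were higher in PyN-like cells in the control (13% of genes) and in the Smo-cKO library (14.6%). The median ratio of the 8 members, RG-like over PyN-like, was 16.7 in the control against 1.02 over all genes, and 13.7 in the Smo-cKO library with *Sox8* set at its lower bound, against 1.00 over all genes.

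*Sox2* fell over several steps, and its largest relative drop came late. In the control it measured 382 CPM in RG-like cells (366–397), 323 in RG/IPC, 163 in IPC-like, 103 in IPC/newborn, 32.8 in newborn PyN-like, 18 in newborn/PyN and 17.4 in PyN-like cells. The Smo-cKO library gave 292, 239, 159, 113, 24.1, 19.9 and 13.2 CPM at the same steps. Thus IPC-like cells still held 0.43 (0.39–0.47) of the RG-like level in the control and 0.54 (0.48–0.61) in the Smo-cKO library, and the largest relative drop came between IPC/newborn and newborn PyN-like cells. From newborn/PyN to PyN-like cells the intervals overlapped in both libraries. RG-like cells held 21.9-fold (15.8–31.2) the PyN-like level in the control and 22.1-fold (15.4–33.1) in the Smo-cKO library.

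*Sox3* and *Sox9* had most of their fall by the IPC-like step. *Sox3* measured 83.9 CPM in RG-like cells of the control, 52.4 in RG/IPC and 13.7 in IPC-like cells, and 1.89 CPM in PyN-like cells (0.514–4.83). The Smo-cKO values were 140, 81.1, 20.9 and 3.19 CPM. The fall from RG-like to IPC-like cells was therefore 6.11-fold (4.58–8.31) and 6.68-fold (4.87–9.41). *Sox9* measured 519 CPM in RG-like cells of the control, 240 in RG/IPC, 49.6 in IPC-like and 21.2 in PyN-like cells, and 485, 181, 39.3 and 16.4 CPM in the Smo-cKO library. Its RG-like level was 10.5-fold (9.01–12.2) and 12.4-fold (9.83–15.7) that of IPC-like cells, and after the IPC-like step each further value lay between 16.4 and 36.6 CPM in both libraries.

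*Sox21* followed a course between these. It measured 143 CPM in RG-like and 122 in RG/IPC cells of the control, values whose intervals overlapped, then 46.9 in IPC-like, 23.8 in IPC/newborn and 6.6 in PyN-like cells. The Smo-cKO values were 125, 121, 52.9, 27.8 and 6.83 CPM. *Sox8*, the least counted member, measured 39 CPM in RG-like, 32.9 in RG/IPC, 15.1 in IPC-like and 3.3 in PyN-like cells of the control. It was 12.3, 15.3 and 8.9 CPM in the Smo-cKO library at the first 3 of these classes. It had no UMI in PyN-like cells of that library, so that its RG-like level was at least 9.04-fold higher, with the zero set at 3 counts over the class.

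*Sox6* declined gradually. In the control it measured 89.8 CPM in RG-like, 74.9 in RG/IPC, 60.6 in IPC-like, 67.4 in IPC/newborn, 42.8 in newborn PyN-like, 32.6 in newborn/PyN and 16.5 in PyN-like cells. Neighbouring steps from RG-like to IPC/newborn overlapped in their intervals, and the whole fall was 5.44-fold (3.86–7.89). In the Smo-cKO library it went from 64.8 to 17.3 CPM, a fall of 3.75-fold (2.69–5.36).

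*Sox4* and *Sox11* rose along the same steps and turned down at the end. *Sox4* measured 380 CPM in RG-like cells of the control, 1229 in RG/IPC, 1713 in IPC-like, 2240 in IPC/newborn, 2411 in newborn PyN-like, 2699 in newborn/PyN and 2271 in PyN-like cells. *Sox11* measured 363, 855, 1879, 3484, 5798, 7281 and 5153 CPM at these steps. In the Smo-cKO library *Sox11* went from 263 CPM in RG-like to 7601 in newborn/PyN and 6018 in PyN-like cells. PyN-like cells held 5.97-fold (5.68–6.28) the RG-like *Sox4* level and 14.2-fold (13.5–14.8) the *Sox11* level in the control, and 7.81-fold and 22.9-fold in the Smo-cKO library. Most of the *Sox4* rise was thus reached by the IPC-like step, and most of the *Sox11* rise came after it.

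**Figure D1:**
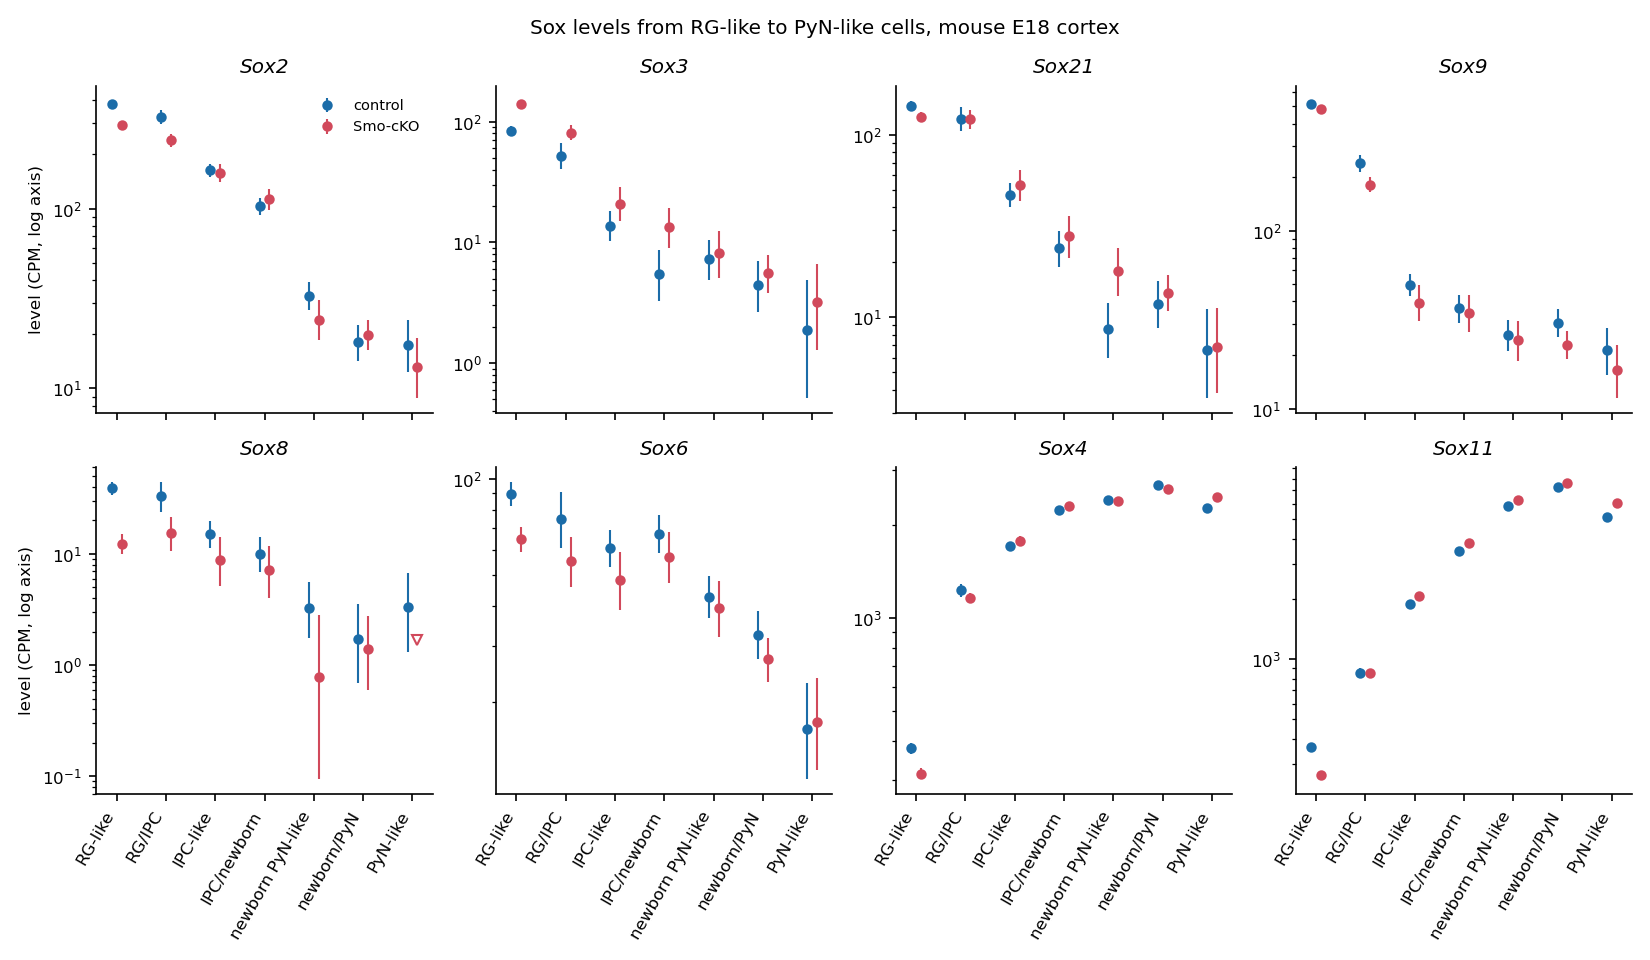
Level of each member (CPM, log axis) at the 7 steps from RG-like to PyN-like cells of the mouse cortex, with exact 95% Poisson intervals, for the control (blue) and Smo-cKO (red) libraries; an open triangle is the upper limit of a class with no UMI. *Sox3* and *Sox9* drop by the IPC-like step. *Sox2* falls over several steps, with its largest relative drop after the IPC/newborn step. *Sox4* and *Sox11* peak in newborn/PyN cells in the control, at 2699 and 7281 CPM.

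Microglia-like cells, which should lack neural Sox genes, held low levels in mouse. These cells, with a median of 7444.5 (control) and 7575 (Smo-cKO) UMIs, held 2.7 and 4.43 CPM of *Sox2*, 39.1 and 46.2 CPM of *Sox4*, and 33.7 and 35.4 CPM of *Sox11*. *Sox2* in PyN-like cells of the control (12.3–24) lay above the microglia-like interval (0.327–9.75), but in the Smo-cKO library (8.84–19) it overlapped it (1.78–9.13). For *Sox3*, *Sox21*, *Sox8* and *Sox6* the microglia-like cells of either library held 0 to 2 UMIs in all. Vascular-like cells held more of some members, with 251 (191–325) and 200 (134–287) CPM of *Sox4*, and in the control 99.7 CPM of *Sox11* and 21.7 CPM of *Sox9* (7.04–50.6), beside 21.2 CPM of *Sox9* in PyN-like cells. Thus the *Sox9* level of control PyN-like cells was not above that of the 31 vascular-like cells. Microglia-like cells held 2.7 (control) and 3.8 (Smo-cKO) CPM of *Sox9*, below the 21.2 and 16.4 CPM of PyN-like cells. For *Sox2*, vascular-like cells held 0 CPM in both libraries.

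Many RG-like cells held UMIs of both early and late genes. Cells were counted by whether they held a UMI of *Sox2*, *Sox3* or *Sox9* and of *Sox4* or *Sox11*. In RG-like cells of the control, 77.4% held both, 17.2% only the early set and 4.45% only the late set. At the same depth of 2000 UMIs per cell the shares were 49.7%, 31.5% and 11.5%, and in the Smo-cKO library, where 50 of 1090 cells fell below that depth, 47%, 32.7% and 11.4%. At that depth cells with only the early set were 3.54% of RG/IPC cells in the control and 3.91% in the Smo-cKO library. Cells with both sets then made 31.2% and 31.3% of IPC-like cells and 6.59% and 5.92% of PyN-like cells. Of microglia-like cells in the control, 2.7% held both sets and 43.2% only the late set at full depth, and 0.0798% and 13.7% at 2000 UMIs, so that a late UMI alone was also found in cells outside the lineage. Depth limits these shares, so a cell without a UMI is not a cell without the RNA.

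Of all UMIs of the 8 members, *Sox4* and *Sox11* took 37.2% (36.3–38) in RG-like cells of the control, 71.1% in RG/IPC, 91.1% in IPC-like, 95.9% in IPC/newborn, 98.6% in newborn PyN-like, 99% in newborn/PyN and 99.1% in PyN-like cells. In the Smo-cKO library the share went from 34% (33.2–34.9) through 74.4% and 92.1% to 99.3%. The composition thus changed most at the RG/IPC step.

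**Figure D2:**
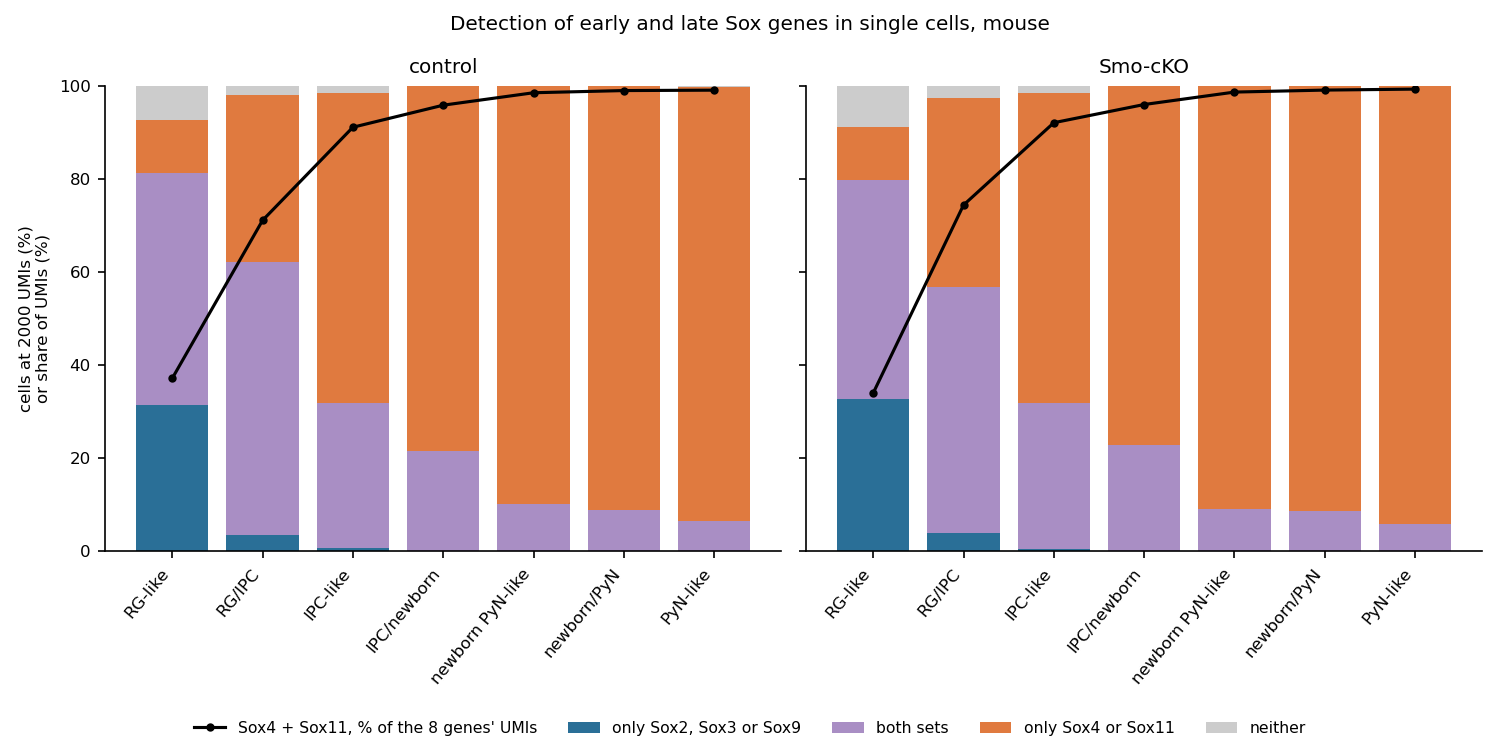
Shares of cells (%, bars, at 2000 UMIs per cell) with a UMI of only *Sox2*, *Sox3* or *Sox9*, of both sets, of only *Sox4* or *Sox11*, or of neither, at each mouse step in the control and Smo-cKO libraries; the line is the share (%) of *Sox4* and *Sox11* among UMIs of the 8 members. In the control the line goes from 37.2% in RG-like cells to 91.1% in IPC-like cells.

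Cells just inside the RG-like limit showed where along this course they stood. In the control, RG-like cells with exactly 3 RG markers (153 cells) held 302 CPM of *Sox9* and 601 CPM of *Sox4*, whereas those with all 6 (377 cells) held 639 and 290 CPM. *Sox2* went from 330 to 400 CPM between these groups, and *Sox3* from 82.9 to 85.8 CPM. Just outside the limit, 109 unassigned cells with 2 RG markers held 271 CPM of *Sox2*, 44.9 of *Sox3*, 204 of *Sox9* and 1027 of *Sox4*. Their *Sox3* level, on 20 UMIs, was thus nearer to that of RG/IPC cells (52.4 CPM) than to that of RG-like cells (83.9 CPM). In the Smo-cKO library the 59 such cells held 119 CPM of *Sox3* on 21 UMIs, between its RG/IPC (81.1 CPM) and RG-like (140 CPM) levels. These counts are small, and the place of either group between the classes was not tested.

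The question behind the genotype comparison was how cortical progenitors differ without Smo function. *Sox3* was higher and *Sox8* lower in RG-like cells of the Smo-cKO library, while *Sox2*, *Sox6*, *Sox4* and *Sox11* were lower by less than 1.5-fold. Past 1.5-fold with an interval that left out 1, there were 2 of 8 members in RG-like cells, against 10.8% of all genes with at least 50 UMIs, and 2 of 8 in cycling RG-like cells, against 9.06%. The median ratio of the 8, Smo-cKO over control, was 0.796 in RG-like cells and 0.77 in cycling RG-like cells, where that of all genes was 0.997 and 0.981.

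*Sox3* measured 83.9 CPM (76.9–91.5) in RG-like cells of the control and 140 CPM (132–149) in those of the Smo-cKO library, a ratio of 1.67 (1.5–1.86). The same difference in cycling RG-like cells, from 91.8 to 144 CPM, gave 1.57 (1.4–1.77). In RG/IPC cells the ratio was 1.55 (1.17–2.07) and in MIPC-like cells 1.74 (1.34–2.24), whereas in IPC-like cells the interval held 1 (1.52, 0.98–2.35). Since depth differed, shares of RG-like cells with *Sox3* were set at 2000 UMIs per cell, at which they were 15.5% and 24.3% (30.4% and 56.8% at full depth). Libraries also differed in how many RG-like cells had all 6 markers (377 of 1348 against 571 of 1090). Within cells of 3, 4, 5 and 6 RG markers *Sox3* was 82.9, 85.4, 82 and 85.8 CPM in the control and 137, 131, 156 and 134 CPM in the Smo-cKO library, so that it was higher at each number.

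*Sox8* moved the other way. It measured 39 CPM (34.2–44.2) in RG-like cells of the control and 12.3 CPM (9.95–15.1) in the Smo-cKO library, a ratio of 0.317 (0.246–0.405). The ratio was 0.49 (0.37–0.65) in cycling RG-like cells and 0.47 (0.29–0.74) in RG/IPC cells. At 2000 UMIs the share of RG-like cells with *Sox8* was 8.04% in the control and 2.38% in the Smo-cKO library. Within cells of 3, 4, 5 and 6 RG markers it was 42.3, 44.3, 42.9 and 29.8 CPM in the control and 35.1, 15.2, 10.8 and 11.2 CPM in the Smo-cKO library. The difference was thus small in cells with 3 markers, where the Smo-cKO value rests on 10 UMIs in 71 cells. In MIPC-like cells *Sox8* was 70.1 CPM (59.7–81.7) and 63.3 CPM (49.7–79.5), a ratio of 0.90 (0.68–1.20). Other genes differed between the MIPC-like cells of the libraries, with *Sox10*, a marker of oligodendrocyte precursors, at 17.6 and 48.8 CPM (2.77, 1.82–4.24), *Hes5* at 117 and 38.5 CPM and *Sox1* at 113 and 35.9 CPM, and the part of this in the *Sox8* ratio was not tested. Whether the ratio in RG-like cells differs from that in MIPC-like cells beyond library differences was not tested.

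*Sox2* was 0.77 (0.72–0.81) of its control level in RG-like cells, 0.69 (0.65–0.74) in cycling RG-like and 0.60 (0.51–0.70) in MIPC-like cells, and only the last passed 1.5-fold. In IPC-like cells its ratio was 0.97 (0.84–1.12). *Sox6* was 0.72 (0.64–0.82) in RG-like cells, *Sox9* was 0.94 (0.89–0.98) and *Sox21* was 0.87 (0.79–0.96). *Sox4* was 0.83 (0.78–0.88) and *Sox11* 0.72 (0.68–0.77). Thus 7 of the 8 members were lower in RG-like cells of the Smo-cKO library, of which only *Sox8* passed 1.5-fold, and *Sox3* stood alone as higher.

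Along the neuronal steps few members with enough UMIs passed 1.5-fold with an interval that left out 1. None of 8 members did so in IPC-like cells (7.84% of genes). *Sox3* (1.52, 0.98–2.35) and *Sox8* (0.59, 0.32–1.03) lay past 1.5-fold there, but their intervals held 1. By the same rule none of 7 with enough UMIs passed in newborn/PyN cells (4.11%) and none of 5 in PyN-like cells (5.57%). In newborn PyN-like cells 1 of 7 did, against 4.82% of genes: *Sox21*, with 8.57 CPM in the control and 17.9 CPM in the Smo-cKO library (ratio 2.09, 1.31–3.36). No member passed there when 4 markers were needed or when cells were thinned to 2000 UMIs. *Sox3* in IPC/newborn cells stood at 2.45 (1.31–4.69) on 18 and 28 UMIs, under the minimum of 50. *Sox8* had 13 and 2 UMIs in newborn PyN-like and 7 and 0 in PyN-like cells, too few to compare. *Sox11* was slightly higher in the Smo-cKO library in newborn PyN-like (1.08, 1.06–1.10) and PyN-like cells (1.17, 1.14–1.20), on the other side of 1 from its ratio in RG-like cells.

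**Figure D3:**
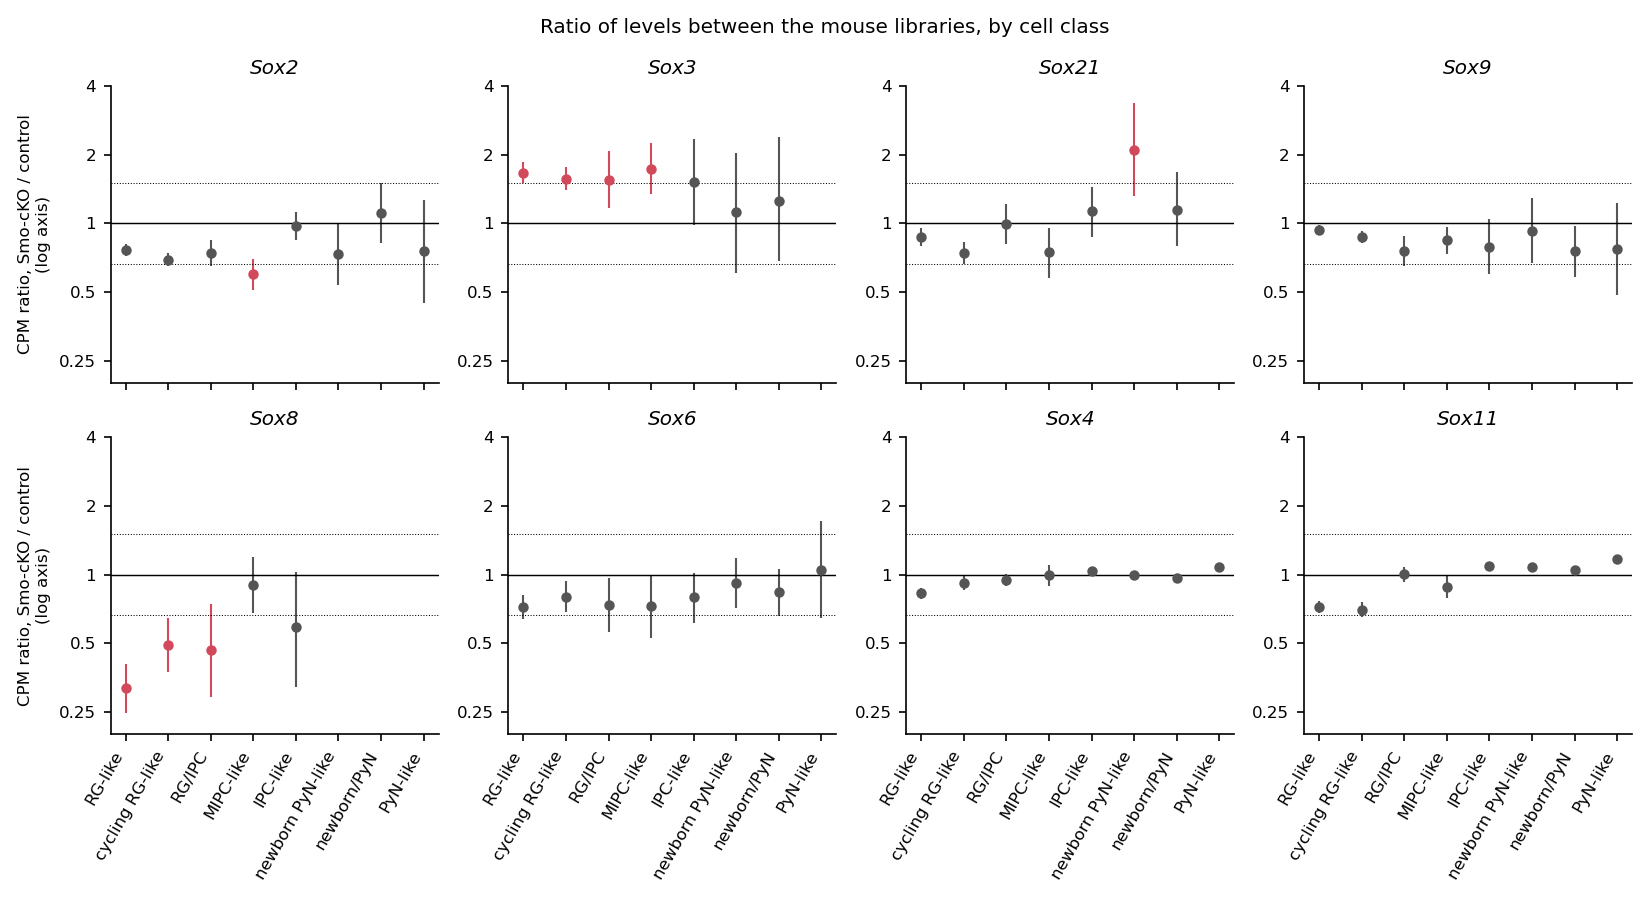
Ratio of levels, Smo-cKO over control (log axis), for each member in 8 mouse classes, with exact 95% intervals of the counts; dotted lines mark 1.5-fold either way, red points are past it with an interval that leaves out 1, and classes with under 50 UMIs over both libraries are not drawn. *Sox3* has red points above 1.5-fold in RG-like, cycling RG-like, RG/IPC and MIPC-like cells. *Sox8* has red points below it in the first 3 of these (0.317, 0.494 and 0.466) but not in MIPC-like cells. In IPC-like cells both genes lie past 1.5-fold with intervals that hold 1.

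Other Sox genes and the lists linked to these factors gave a comparison for the members. Of 11 other Sox genes, 9 were in the mouse table and 4 had enough UMIs in RG-like cells. Of these 4, 3 were lower past 1.5-fold in the Smo-cKO library, where 10.8% of all genes with at least 50 UMIs passed 1.5-fold either way. They were the SoxB1 gene *Sox1* (86.2 and 55.8 CPM), the SoxC gene *Sox12* (42.1 and 23.5 CPM) and the SoxD gene *Sox13* (6.17 and 2.42 CPM). The SoxD gene *Sox5* measured 36.4 and 44.4 CPM (ratio 1.22, 1.03–1.45). So *Sox1* (ratio 0.65, 0.57–0.74) went against its SoxB1 relative *Sox3*. None of 5 POU partners of Sox proteins, none of 7 progenitor-linked genes (*Nes*, *Fabp7*, *Notch1*, *Hes5*, *Nfia*, *Nfib*, *Pax6*) and none of 8 neuron-linked genes passed 1.5-fold in RG-like cells, with median ratios of 0.88, 0.91 and 0.92.

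Between RG-like and PyN-like cells of the control, 5 of 7 progenitor-linked genes were at least 2-fold higher in RG-like cells, against 19.4% of all genes. Among them were *Hes5* (285 against 5.19 CPM) and *Notch1* (180 against 6.13 CPM), whereas *Nfib* was lower (775 against 2217 CPM). Of the neuron-linked genes, all listed as linked to SoxC factors, 7 of 8 were at least 2-fold higher in PyN-like cells, against 13% of all genes. Among them were *Tubb3* (44.5 against 2033 CPM) and *Dcx* (27.8 against 853 CPM). *Tead2*, from the same SoxC-linked list, was higher in RG-like cells (88.2 against 32.1 CPM). The POU partners *Pou3f1*, *Pou3f2* and *Pou3f3*, transcription factors that bind DNA together with Sox proteins, were higher in PyN-like cells, *Pou3f2* at 294 against 851 CPM. *Sox1* followed the early members (86.2 against 11.3 CPM), and *Sox5* was higher in PyN-like cells (36.4 against 107 CPM).

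Cycling RG-like cells were also compared with RG-like cells. None of the 8 members differed by 2-fold between these classes in either mouse library. The share of all genes past 2-fold between them is not given here, so this count has no background beside it. Whether the members stand apart from other genes here was not tested. *Sox4* was the member lower in cycling cells of all 4 sets, at 0.745 (0.699–0.793) in the control and 0.83 (0.77–0.89) in the Smo-cKO library, and *SOX4* was at 0.667 (0.534–0.834) and 0.702 (0.606–0.812) in the ferret sets. *Sox8* in the Smo-cKO library stood at 1.35, with an interval (0.984–1.86) that held 1. *Sox2* in cycling RG-like cells was 1.06 (1.00–1.12) and 0.96 (0.90–1.03) of its RG-like level in the mouse libraries.

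MIPC-like cells, which carry genes of the oligodendrocyte and interneuron lineages, held the highest *Sox8* level of any class in both mouse libraries and in ferret set 2. These cells had a median of 3 RG markers in the control, 4 in the Smo-cKO library and 1 in each ferret set. Unlike RG-like cells, they include cells with cell-cycle markers. The part of either in the ratios of MIPC-like cells was not tested. The ratio to RG-like cells was 1.80 (1.46–2.20) in the control, 5.13 (3.72–7.04) in the Smo-cKO library and 4.48 (2.35–9.13) for *SOX8* in ferret set 2. In ferret set 1 *SOX8* had 4 UMIs in MIPC-like cells, too few to compare. *Sox9*, the other SoxE gene, was lower there than in RG-like cells, at 0.62 (0.57–0.67) and 0.56 (0.50–0.63) in the mouse libraries. *Sox10*, also a SoxE gene and a marker of oligodendrocyte precursors, had 41 and 57 UMIs in MIPC-like cells of the control and the Smo-cKO library and 0 in RG-like cells of both. *Sox2* was lower in MIPC-like than in RG-like cells in both mouse libraries (0.787, 0.722–0.857, and 0.615, 0.531–0.709), as was *SOX2* in the ferret sets (0.687 in each).

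In ferret cells too the 6 early genes were lower, and *SOX4* and *SOX11* higher, in PyN-like than in RG-like cells. In ferret set 2, 6 of 8 members were at least 2-fold higher in RG-like cells (15.3% of genes) and 2 of 8 in PyN-like cells (11.1%). In ferret set 1 it was 5 of the 7 members with at least 50 UMIs (12.4% of genes) and 2 of 7 (7.29%), *SOX8* having 43 UMIs in both classes together. With cells thinned to 2000 UMIs the count was 3 in each set, as it was in set 1 with 4 markers needed, because fewer members then had 50 UMIs. After thinning in set 2, for instance, *SOX21* stood at 152 times its PyN-like level but was under that minimum. *SOX2* went from 514 and 687 CPM in RG-like cells through 93.6 and 101 in IPC-like cells to 8.85 and 6.29 CPM in PyN-like cells of sets 1 and 2. *SOX9* went from 250 and 270 through 26.3 and 25.5 to 4.35 and 2.26 CPM, and *SOX21* from 100 and 94.2 CPM to 1.97 and 0.626 CPM. Microglia-like cells held 31.9 (11.7–69.4) and 11.8 (1.43–42.8) CPM of *SOX2*, and 26.6 (8.63–62) and 5.92 (0.15–33) CPM of *SOX6*. The PyN-like levels of *SOX2* were thus not above those of microglia-like cells in either set, nor was that of *SOX6* in set 1. In set 2 the PyN-like *SOX6* level (15.8 CPM) lay inside the microglia-like interval. Vascular-like cells held 64.9 and 56.5 CPM of *SOX6*, but 7.21 and 2.69 CPM of *SOX2*. For *SOX9*, microglia-like cells held 5.31 and 0 CPM. Folds of *SOX2* and *SOX6* over PyN-like cells, and of *SOX9* in set 1, are thus set against values not shown to be above background. *SOX3* was counted in few cells, with 13 and 38 UMIs in RG-like cells.

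*SOX2* thus stood at 0.182 (0.12–0.269) and 0.147 (0.115–0.185) of its RG-like level in ferret IPC-like cells, where the *Sox2* ratios in mouse were 0.43 and 0.54. The tables were made separately and the ages differ, so whether the species differ in this was not tested. The ferret transition classes were small, with 2 and 5 RG/IPC cells and 5 and 18 IPC/newborn cells, and are not described.

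*SOX4* rose from 614 and 601 CPM in RG-like to 1235 and 1112 in IPC-like and 2130 and 1785 CPM in newborn PyN-like cells, and was 1330 and 1910 CPM in PyN-like cells. *SOX11* rose from 229 and 153 CPM to 521 and 835, and 947 and 932 CPM in newborn PyN-like cells, and then stood at 504 and 565 CPM in PyN-like cells. The late fall of *SOX11*, to 0.53 (0.43–0.67) and 0.61 (0.54–0.68) of the newborn level, stands beside 0.889 (0.869–0.909) and 0.962 (0.94–0.984) for *Sox11* in the mouse libraries, and the species were not tested against each other. Microglia-like cells of the ferret held 266 and 343 CPM of *SOX4* and 31.9 and 47.4 CPM of *SOX11* (median 2934 and 3706 UMIs), and the part of free RNA in the lower *SOX4* values was not tested. Together *SOX4* and *SOX11* took 34.5% and 28% of the UMIs of the 8 members in RG-like cells, 81.9% and 82.4% in IPC-like cells and 97.9% and 98.9% in PyN-like cells.

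*SOX6* fell steeply along the ferret classes. It measured 671 CPM (579–774) and 818 CPM (752–888) in RG-like cells, 231 and 249 in IPC-like cells, 59.2 and 114 in newborn PyN-like cells and 19.5 and 15.8 CPM in PyN-like cells. The RG-like level was 34.5-fold (28.8–41.2) and 51.9-fold (46.2–58.4) that of PyN-like cells, and *Sox6* in the mouse libraries gave 5.44-fold and 3.75-fold. The ferret PyN-like values were not shown to be above background, as given above. In MIPC-like cells it was 510 and 794 CPM and in cycling RG-like cells 696 and 670 CPM, while cycling IPC-like cells held 257 and 310 CPM.

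**Figure D4:**
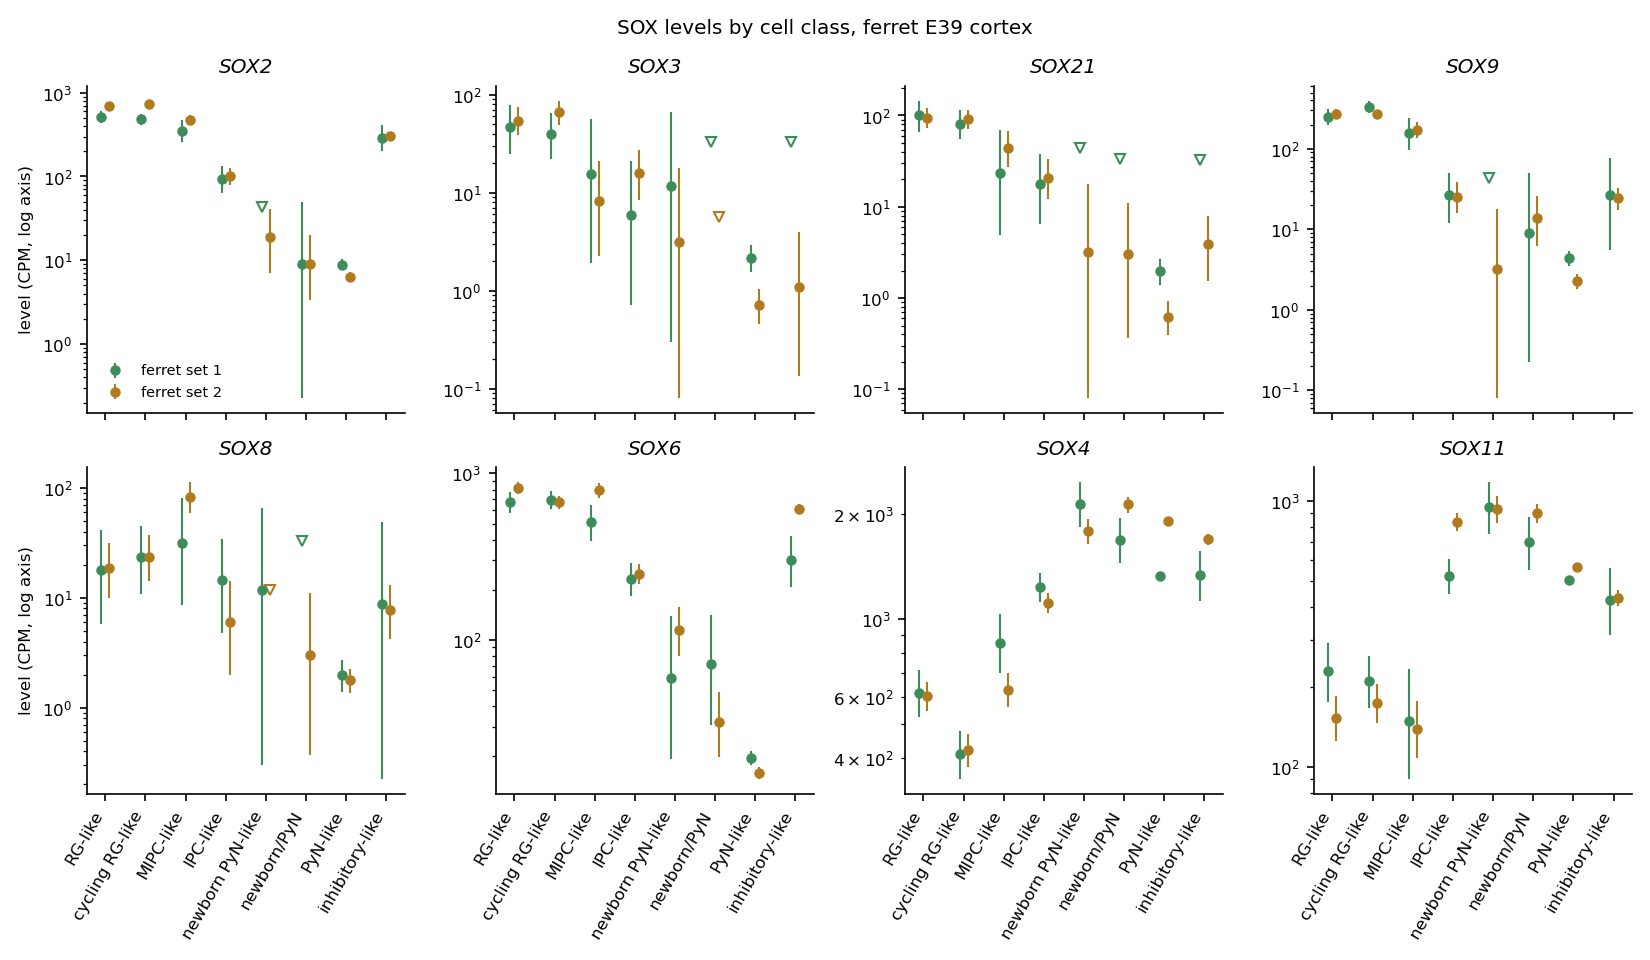
Level of each member (CPM, log axis) in 8 ferret classes with exact 95% Poisson intervals, for ferret set 1 (green) and ferret set 2 (ochre); an open triangle is the upper limit of a class with no UMI. *SOX6* is high in RG-like, cycling RG-like and MIPC-like cells, low in PyN-like cells (19.5 and 15.8 CPM) and high again in inhibitory-like cells (300 and 615 CPM).

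Inhibitory-like cells carried *Sox2* together with the SoxC genes. They held 304 and 311 CPM of *Sox2* in the mouse libraries and 291 and 302 CPM in the ferret sets, with *Sox2* at 17.4 (11.7–26.4) and 23.6 (16–36) times its PyN-like level in mouse and *SOX2* at 32.9 (21.9–48) and 48 (41.1–56.3) times in ferret. *Sox11* was 2883 and 3578 CPM in the mouse libraries, at 0.56 (0.52–0.601) and 0.595 (0.569–0.621) of the PyN-like level, and *Sox4* was at 0.625 and 0.728. *Sox9* was also above its PyN-like level, at 90.4 and 57.1 CPM (4.26-fold, 2.5–7.1, and 3.49-fold, 2.17–5.63), whereas *Sox3* had 1 UMI in each mouse library. At 2000 UMIs per cell, 46.8% and 45.1% of inhibitory-like cells held both an early and a late gene, against 6.59% and 5.92% of PyN-like cells. In the Smo-cKO library 39 of 229 inhibitory-like and 18 of 521 PyN-like cells fell below that depth and were left out.

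*SOX6* differed within these cells, which were split by markers other than the members, leaving out cells with markers of both sides. Among inhibitory-like cells of ferret set 2, those with *LHX6*, a marker of medial ganglionic eminence interneurons, held 1310 CPM of *SOX6* (1203–1424), with a UMI in 94.6% of 130 cells. Those with *NR2F2* or *ADARB2*, markers of the caudal eminence, held 71.5 CPM (55.4–90.8), with a UMI in 8.38% of 334 cells. The other sets had the same order, with 666 against 42.2 CPM in ferret set 1 (9 and 31 cells), 179 against 10.5 CPM in the control (18 and 30 cells) and 115 against 8.04 CPM in the Smo-cKO library (54 and 120 cells), and in none did the intervals overlap. *SOX2* went the other way in ferret set 2, at 235 (191–286) against 366 (328–407) CPM. *SOX4* and *SOX11* were both somewhat higher in the *LHX6* cells of that set, with 1992 against 1372 CPM and 497 against 380 CPM.

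**Figure D5:**
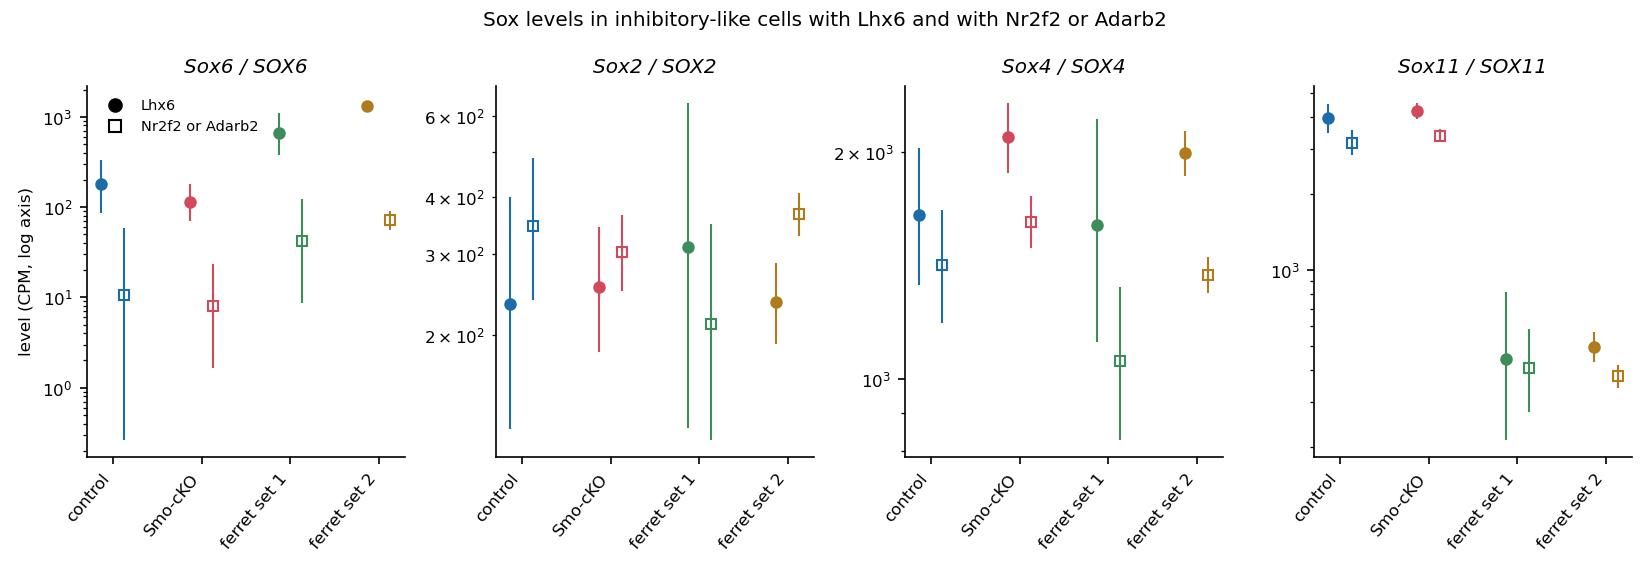
Levels (CPM, log axis) of *Sox6*, *Sox2*, *Sox4* and *Sox11* in inhibitory-like cells with *Lhx6* (filled circles) and with *Nr2f2* or *Adarb2* (open squares), in the control, Smo-cKO, ferret set 1 and ferret set 2, with exact 95% Poisson intervals. *Sox6* is the gene whose intervals do not overlap in any of the 4 sets, with 1310 against 71.5 CPM in ferret set 2.

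The genes most like each member were taken over 26 points, the 13 classes in each mouse library, by Pearson's r of log2(CPM + 10) among 9983 genes. The points share libraries and depth, so r is a description. The nearest gene was *Cbs* for *Sox3* (r = 0.98), *Cdon* for *Sox21* (0.97), *Asrgl1* for *Sox9* (0.96), *Slc1a2* for *Sox2* (0.92), *Peg12* for *Sox8* (0.93), *Msi2* for *Sox6* (0.94), *Gm26735* for *Sox4* (0.99) and *Brsk2* for *Sox11* (0.99). *Gm26735* overlaps *Sox4*, and whether the counts told their reads apart was not tested. *Elavl3*, an RNA-binding protein of neurons, was the third nearest to *Sox11*, at 0.99 in mouse and 0.92 over 23 ferret points. In ferret *SLC1A2* did not follow *SOX2* (r = -0.24), whereas *BRSK2* and *SOX11* gave 0.78 and *MSI2* and *SOX6* 0.83.

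Among the members themselves, *Sox4* with *Sox11* was the closest pair in mouse (r = 0.96 over 26 points and 0.86 over 23 in ferret, where *SOX21* with *SOX9* gave 0.94), followed by *Sox3* with *Sox21* (0.93, and 0.92 in ferret) and *Sox3* with *Sox9* (0.92 and 0.84). *Sox2* was closer to *Sox6* (0.87 and 0.91) than to its SoxB1 relative *Sox3* (0.74 and 0.72), in both species. The SoxE pair *Sox9* with *Sox8* gave 0.85 and 0.79.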

How the data were processed

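Single cortical cells were measured in 2 mouse libraries (control and Smo-cKO, E18) and in 1 ferret cortex (E39, 2 barcode sets), by the Chromium droplet platform (10x Genomics). The deposited tables hold UMI counts per gene and cell, made by the authors; the submitters' processing notes name Cell Ranger, StringTie, Seurat 3 and mm10, and the ferret build is not given in the sources used here. Cells with 750 to 5000 genes and at most 10% mitochondrial UMIs were kept. Deposited totals were 52287727 and 43283675 UMIs in mouse and 30574227 and 56361053 in ferret. Counts were summed per class and library and divided by the class total. Ratios carry exact conditional binomial intervals, which cover counting error only, since there was 1 library per genotype; the ratio code was tested on simulated counts. Genes with at least 50 UMIs over both classes or libraries were the background, and a difference was counted past 1.5-fold (genotype) or 2-fold (class) with an interval that left out 1. Shares at 2000 UMIs are the expected shares when each cell is thinned to that depth. Genotype was given by barcode suffix, with the larger set as the control, as the study states the cell numbers; were this crossed, all directions would reverse. The members and lists were chosen with earlier results of these data known; the 3-marker limit, the transition classes and the place of cells with RG and MIPC markers (MIPC-like) were set after marker detection had been seen. Named were all members, 11 other Sox genes, 5 POU partners, 7 progenitor-linked and 8 neuron-linked genes, and per member the 3 genes of highest correlation with at least 200 UMIs in each library. Alternatives varied the markers needed, mixed and cycling cells, cell filters, scaling, depth, fold and UMI minimum. Python 3.11.15, NumPy 2.4.6, SciPy 1.17.1 and pandas 2.3.3 were used. Protein and promoter sequences were not used here.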

Additional observations from a re-analysis of the deposited data

Results flagged for a closer look

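*Sox11* and *Sox4* are listed because their ratio between the mouse libraries fell on opposite sides of 1 in RG-like and PyN-like cells, with both counting intervals leaving out 1. For *Sox11* the Smo-cKO over control ratio was 0.72 in RG-like cells and 1.17 in PyN-like cells. For *Sox4* it was 0.83 and 1.08. With 1 library per genotype the difference between classes was not tested. The RG-like cells also differed in median depth (4339.5 and 6670 UMIs per cell) and in the number of RG markers, and the part of these in the ratios was not tested.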

How the results depend on the processing

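Of the counts of members past a threshold, 129 recomputed under an alternative stayed within 1.5 times the reported count and 18 did not. The share of all genes at each alternative is not given here, so the counts that follow have no background beside them. With 2-fold in place of 1.5-fold, 1 member passed in RG-like and 1 in cycling RG-like cells instead of 2. With 4 own markers needed, or with mixed cells placed by most markers, 1 passed in IPC-like cells instead of 0. In newborn PyN-like cells 0 passed with 4 own markers or thinned cells and 2 with cycling cells kept, and in PyN-like cells 1 passed with no UMI minimum. When shares of cells replaced UMIs, 0 members were higher in PyN-like cells of either mouse library and 1 in each ferret set. In mouse this was fixed by detection, since *Sox4* and *Sox11* already had a UMI in 64.8% and 57.8% of control and 71.8% and 66.8% of Smo-cKO RG-like cells, which leaves no room for 2-fold. With 4-fold in place of 2-fold, 0 were higher in PyN-like cells of either ferret set. In ferret set 1, 3 were higher in RG-like cells with 4 own markers or thinned cells, and 0 in PyN-like cells with 4 own markers, where the RG-like over PyN-like ratios of *SOX4* and *SOX11* were 0.505 and 0.52. In ferret set 2, 3 were higher in RG-like cells after thinning. Of the single ratios recomputed under an alternative, 737 stayed inside the interval of the main setting, 73 left it and 3 changed side. Those 3 changed side with 4 own markers. They were *Sox9* (1.09) and *Sox4* (1.02) between genotypes in newborn/PyN cells, and *SOX8* between RG-like and PyN-like cells of ferret set 1 (0, no UMI in RG-like cells). The lower ferret counts in RG-like cells come from fewer members with 50 UMIs, and the cause of the other shifts was not tested. No paired analysis was possible because each genotype had 1 library.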
